A study of Homo sapiens with 8 samples.

Results

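The 10 genes described here encode chains of interstitial collagens, the collagens laid down between cells rather than in the basement membrane: COL1A1, COL1A2, COL3A1, COL5A1, COL5A2, COL6A1, COL6A2, COL6A3, COL12A1 and COL22A1. They were taken by symbol, and 18 of the 48175 RefSeq transcripts in the table map to them. The list was made with earlier results of these data known, so counts of its members beside all tested rows describe and do not test. RNA was sequenced from 8 libraries of HMLE cells, an immortalized human mammary epithelial line. All cells had been transduced with a lentivirus and selected with puromycin at 0.5 µg/mL. The control cells carried a scrambled shRNA, and the other cells carried 1 shRNA construct against the SoxC transcription factor SOX4. Each kind of cell was left untreated or was given TGF-β for 16 h, which made 4 groups of 2 libraries. With 1 targeting construct, effects of SOX4 loss and effects of that construct cannot be told apart. Nothing in the labels ties the 2 libraries of a group to separate cultures, and the spread behind the p-values may thus be technical.

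Collagens are triple helices of α chains. COL1A1 and COL1A2 encode the chains of type I collagen, the main fibrillar collagen of skin, bone and tendon, and COL3A1 encodes the chain of type III collagen, which joins type I in the fibrils of elastic tissues. COL5A1 and COL5A2 encode chains of type V collagen, which nucleates those fibrils and limits their width. COL6A1, COL6A2 and COL6A3 encode the chains that combine into the beaded microfilaments of type VI collagen. COL12A1 and COL22A1 encode collagens with interrupted triple helices, of which type XII binds to fibril surfaces and type XXII is known from tissue junctions. In many cells TGF-β is an inducer of fibrillar collagen genes, and it can drive epithelial cells toward a mesenchymal state in which such genes are made.

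COL12A1 is present as a long transcript (NM_004370) and a short one (NM_080645), and these sequences show where they part. In GENCODE on GRCh37, the long form has 66 exons and the short form 51. The block of 15 exons in the long form only, exons 3 to 17, lies on chromosome 6 from 75864132 to 75904663 on the minus strand and holds 3492 coding bases. The deposited values allowed 2 pairs of transcript lengths, and the pair that differs by these 3492 bases was used. Each line gives 20 bases on either side of an exon junction, with the downstream exon in capitals, on GRCh37.
Long form, entering the block (exon at 6:75912436-75912543 to exon at 6:75904547-75904663): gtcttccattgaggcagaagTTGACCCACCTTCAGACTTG
Long form, leaving the block (exon at 6:75864132-75864253 to exon at 6:75862049-75862198): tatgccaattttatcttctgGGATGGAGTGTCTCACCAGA
Short form, across the block: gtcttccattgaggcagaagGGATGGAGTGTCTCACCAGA
The short form joins the same upstream exon to the exon that follows the block, so only reads that touch the block or these junctions tell the forms apart.

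The regions before the start sites are shown for genes whose levels fell with the SOX4 shRNA (COL6A2, COL6A3) and for COL12A1, whose summed level did not pass that test. RefSeq promoter entries on GRCh38.p14 were matched for 4 of the 10 genes (COL5A1, COL6A2, COL6A3 and COL12A1). Capitals mark letter matches on either strand to CAGAC, a SMAD-type motif, AACAAAG or AACAATG, SOX-type motifs, CCAAT, or GGGCGG, an SP-type motif. Each line holds the 250 bases before the start site.
COL6A2, chr21:46097862-46098111, plus strand: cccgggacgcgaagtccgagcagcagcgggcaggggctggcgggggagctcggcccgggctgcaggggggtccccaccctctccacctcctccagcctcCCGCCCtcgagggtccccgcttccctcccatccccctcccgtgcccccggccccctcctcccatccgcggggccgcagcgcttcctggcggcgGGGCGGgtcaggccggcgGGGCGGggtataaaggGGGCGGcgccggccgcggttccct
COL6A3, chr2:237414165-237414414, minus strand: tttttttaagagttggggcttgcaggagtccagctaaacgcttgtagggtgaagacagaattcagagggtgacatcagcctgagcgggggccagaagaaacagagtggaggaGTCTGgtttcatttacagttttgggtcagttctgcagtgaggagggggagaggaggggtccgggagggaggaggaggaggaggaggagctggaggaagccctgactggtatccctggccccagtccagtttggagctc
COL12A1, chr6:75206054-75206303, minus strand: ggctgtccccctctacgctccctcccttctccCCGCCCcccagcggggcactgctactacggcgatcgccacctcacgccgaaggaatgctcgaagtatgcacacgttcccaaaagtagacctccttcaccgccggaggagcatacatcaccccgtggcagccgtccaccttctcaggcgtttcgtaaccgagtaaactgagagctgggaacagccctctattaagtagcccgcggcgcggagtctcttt
GGGCGG stood 4 times in the COL6A2 window and 1 time in that of COL12A1, and was found in 3 of the 4 genes, while 42.6% of the 35116 promoters in the table hold it. The COL6A3 window held CAGAC on its other strand at position -138, a motif in 38.0% of all promoters. AACAAAG (4.50% of all promoters), AACAATG (2.87%) and CCAAT (32.0%) had no letter match in the 4 windows.

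Values are FPKM, fragments per length of transcript and per size of library, with 2 libraries a group throughout. In 61 of the 80 values of a member gene in a library the deposited table had lost at least 1 decimal mark, and the mark was set by requiring whole reads behind each value. In 3 of these a reading 10 times lower was also whole: COL1A1 in the first TGF-β-treated SOX4-shRNA library (25.9 used, 2.59 possible, 34.8 in the other library), COL5A2 in the second untreated scrambled-shRNA library (10.1 used, 1.01 possible, 9.16 in the other) and COL12A1 in the second TGF-β-treated scrambled-shRNA library (36.5 used, 3.65 possible, 38.2 in the other). In these 3 the readings nearest to the other library of the group were used. The choice among readings favoured close libraries of a group, lower levels and, in genes with 1 transcript, moderate effects. In those genes any higher reading would need a read number that is a multiple of 10. In genes with several transcripts, 1 transcript could be read higher alone, and up to 4 higher sums were whole in a library of COL12A1 or COL6A3. Libraries held 3.47 M to 4.64 M reads in the 5059 tested rows less those of the members. SOX4 itself had 8.74 and 8.04 FPKM in untreated scrambled-shRNA cells, 18.7 and 17.6 with TGF-β, 0.923 and 1.02 in untreated SOX4-shRNA cells, and 2.37 and 1.88 with TGF-β, so the libraries labelled SOX4 shRNA were the lower ones under both conditions. The epithelial markers CDH1 (74.1 to 95.4 FPKM) and EPCAM (55.8 to 114) were present in every library. Of 10 endothelial, leukocyte and adipocyte markers listed, the decimal marks of 9 could be settled, and their highest FPKM in a library was under 0.2. The remaining 1, the leukocyte marker CD68, could not be settled but stood at no less than 3.36 FPKM in any library. Of 6 fibroblast markers, PDGFRA and LUM reached at most 0.103 and 0.105 FPKM, and the values of DCN and FAP could not be settled. The lowest possible readings over the libraries were 0.156 to 1.42 FPKM for DCN and 1.51 to 6.68 for FAP, so FAP was present in every library. THY1, found on fibroblasts and also on basal epithelial cells, had 77.1 and 68.8 FPKM in untreated scrambled-shRNA cells, 83.6 and 90.5 with TGF-β, 50.4 and 37.8 in untreated SOX4-shRNA cells, and 55.1 and 67.1 with TGF-β. It was lower with the SOX4 shRNA in untreated cells (log2 difference -0.72 ± 0.16 SE, adjusted p = 0.042). PDGFRB (0.514 to 2.18 FPKM) stood lower with the shRNA as well, without passing the test. The part of these markers in the collagen results was not tested, and in these bulk samples fewer cells of a type and less RNA per cell cannot be told apart.

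The summed level of the 10 genes was 149 to 155 FPKM in untreated scrambled-shRNA cells, 215 to 236 with TGF-β, 50.7 to 52.4 in untreated SOX4-shRNA cells and 79.0 to 90.0 with TGF-β. COL1A1 made up 45.1 to 47.7% of the sum in untreated scrambled-shRNA cells and 18.6 to 24.3% in untreated SOX4-shRNA cells, where COL12A1 made up 46.9 to 53.1%. In untreated scrambled-shRNA cells the order of mean levels was COL1A1 (70.4), COL12A1 (27.7), COL6A1 (15.3), COL6A2 (13.6), COL5A2 (9.64), COL1A2 (8.48), COL3A1 (3.91), COL6A3 (1.93), COL22A1 (0.545) and COL5A1 (0.279). Of the neighbours in that order, the libraries of COL6A1 and COL6A2 overlapped and those of the others did not. With TGF-β, COL22A1 (4.41) stood above COL3A1 (3.64) and COL6A3 (3.40), whose libraries overlapped each other, and COL6A1, COL6A2, COL1A2 and COL5A2 lay between 13.1 and 15.8 with overlapping neighbours. In untreated SOX4-shRNA cells COL12A1 (25.8) led, above COL1A1 (11.1) and COL5A2 (5.78). In TGF-β-treated SOX4-shRNA cells COL12A1 (30.6) and COL1A1 (30.3) overlapped at the top, and COL1A2, COL6A1 and COL6A2 lay between 3.15 and 4.0.

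**Figure D1:**
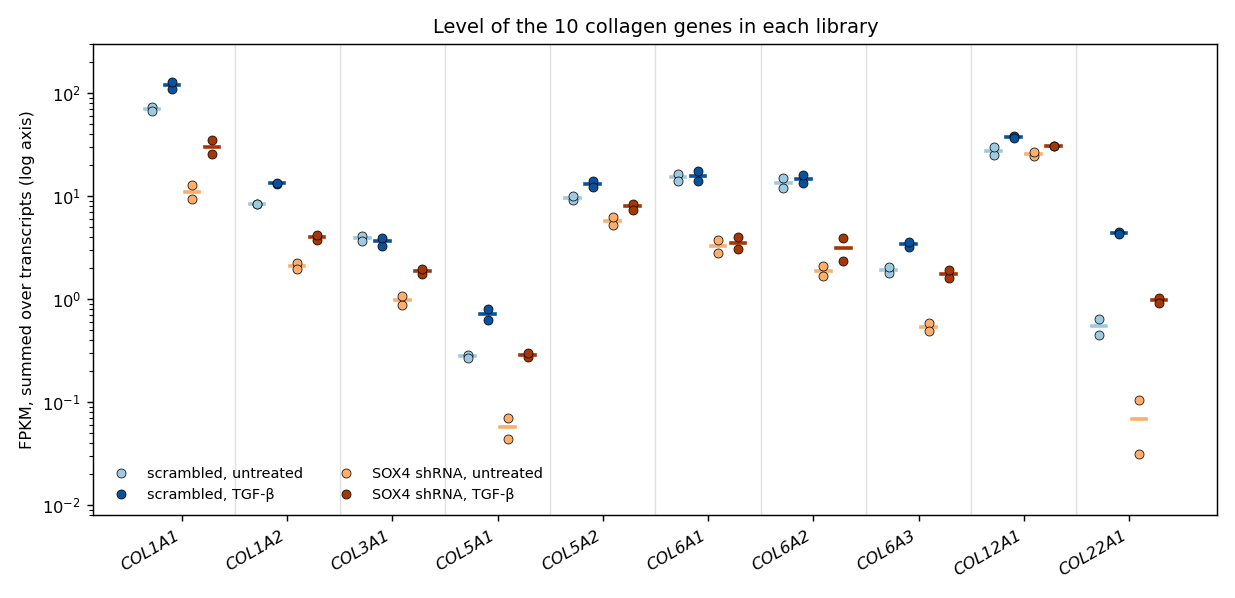
FPKM of each gene, summed over its transcripts, on a log axis. Points are the 2 libraries of each of the 4 groups and bars are their means. In every gene but COL12A1 the untreated SOX4-shRNA libraries lie below both untreated scrambled-shRNA libraries.

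With the SOX4 shRNA in untreated cells, both libraries of 9 of the 10 genes lay below both scrambled-shRNA libraries, and COL12A1 overlapped. The same ordering was seen in 23.3% of all 5059 rows tested. In the limma fit, of which 12 transcript rows of 9 genes were part (COL5A1 was under the filter of 1 FPKM in 2 libraries), 7 rows of 7 genes fell at an adjusted p under 0.05, against 3.40% of all rows. On the log2(FPKM + 1) scale COL1A1 had the lowest log2 difference of all 5059 rows, COL6A2 the 3rd lowest, COL6A1 the 7th and COL1A2 the 15th. This order depends on the scale. By limma-voom on whole reads COL6A3 NM_057167 (-4.82), COL22A1 (-3.08) and COL6A2 NM_001849 (-2.99) lay below COL1A1 (-2.68). The median over the 12 rows was -0.87, against -0.00493 over all rows. Rows pass the filter through the group in which they are high. The shares and medians of member rows, here and in the comparisons below, thus describe and do not test.

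With the shRNA in TGF-β-treated cells, both libraries of all 10 genes lay below both scrambled-shRNA libraries, an ordering found in 23.3% of all rows. Of the 12 rows, 7 rows of 7 genes fell, against 2.98% of all rows, and the median was -0.89 against 0.014. These 2 shRNA comparisons use different libraries. Their called genes differed by COL22A1, which was called with TGF-β only, and by COL6A3 (NM_057167), which was called in untreated cells only. The difference between the 2 comparisons was not called for either.

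With TGF-β in scrambled-shRNA cells, both treated libraries lay above both untreated ones for 7 of the 10 genes, an ordering found in 29.0% of all rows, and COL3A1, COL6A1 and COL6A2 overlapped. COL1A1, COL1A2 and COL22A1 rose by the test, 3 of 12 rows against 5.04% of all rows. With TGF-β in SOX4-shRNA cells, both treated libraries lay above both untreated ones for 9 of the 10 genes (20.3% of all rows), with overlap in COL6A1. COL1A1, COL1A2, COL3A1, COL6A3 (NM_057167) and COL22A1 rose, 5 of 12 rows against 6.29% of all rows. COL22A1 and COL6A3 (NM_057167) passed the filter only through TGF-β-treated libraries, so their calls add no support to these shares. The medians over the 12 rows were 0.44 and 0.54, against -0.0316 and -0.0432 over all rows. Each TGF-β comparison shares its libraries with an shRNA comparison, so the values of a gene in the 4 comparisons are not independent.

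**Figure D2:**
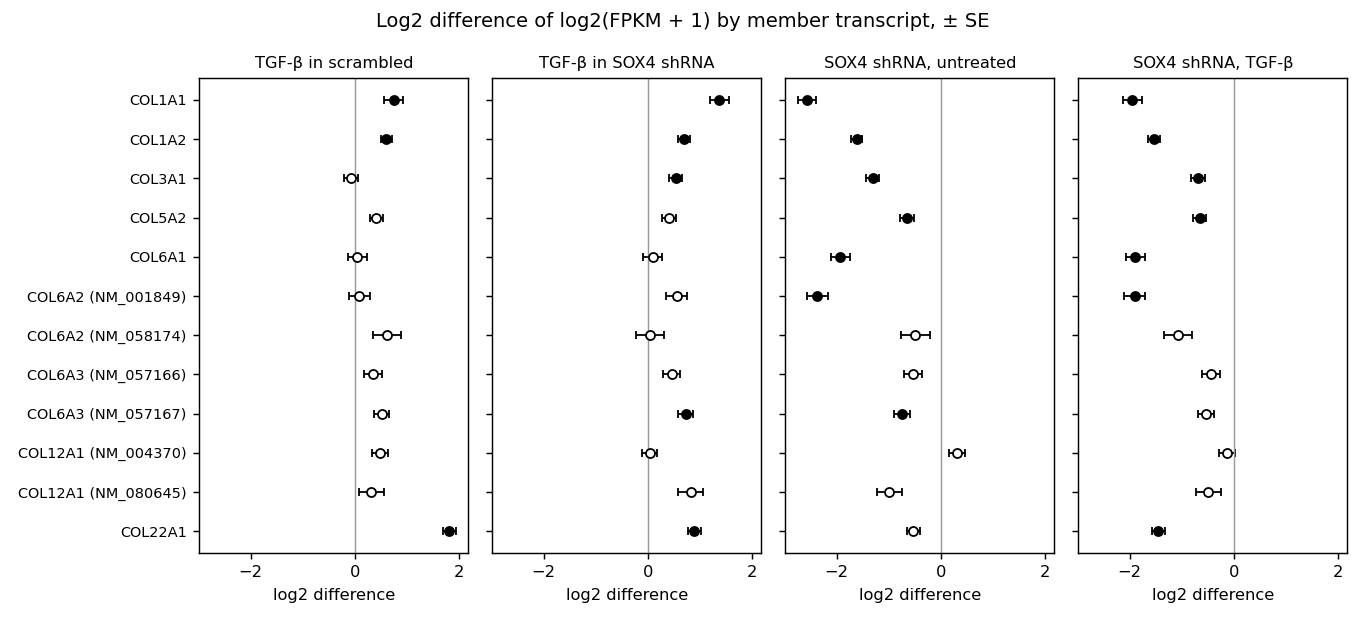
Log2 differences of log2(FPKM + 1) with SE, for each of the 12 member rows in the limma fit and in each of 4 comparisons. Filled points have an adjusted p under 0.05. All rows but COL12A1 NM_004370 are at or below -0.44 in the shRNA comparisons.

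No interaction of the shRNA with TGF-β was called by limma in any member row, nor in any of the 5059 rows (0%), of which 140 had an unadjusted p under 0.05; limma-voom on whole reads also called 0. The smallest member p was that of COL22A1, with a log2 difference between the TGF-β effects of -0.92 ± 0.19 SE (adjusted p = 0.62). That direction depends on the scale, since limma-voom on whole reads gave 0.93. COL3A1 had 0.62 ± 0.19 and COL1A1 0.63 ± 0.26, each with an adjusted p of 0.99. These misses do not show that TGF-β acted alike in both kinds of cell. Rows were also lost when the decimal marks were restored. In a check of that step with known changes, 579 of 1011 genes with a 5-fold change in 1 group alone were left out. A further 16 were misread. With a 5-fold change shared by both treated or both SOX4-shRNA groups, 39 of 1011 were left out. How many rows with an interaction are missing from the 5059 was not tested.

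For type I collagen, both chains fell with the shRNA and rose with TGF-β in each kind of cell. COL1A1 (chromosome 17, 48261462 to 48278993, minus strand, GRCh37) encodes its α1 chain. It stood at 73.7 and 67.2 FPKM in untreated scrambled-shRNA cells, 110 and 127 with TGF-β, 12.8 and 9.42 in untreated SOX4-shRNA cells, and 25.9 and 34.8 with TGF-β. The 4 groups did not overlap, and TGF-β-treated SOX4-shRNA cells stayed below untreated scrambled-shRNA cells. The mean was 6.35-fold lower with the shRNA in untreated cells (log2 difference -2.57 ± 0.18 SE, adjusted p = 0.0002) and 3.91-fold lower in treated cells (-1.95 ± 0.18, adjusted p = 0.0012). TGF-β raised it 1.69-fold in scrambled-shRNA cells (0.74 ± 0.18, adjusted p = 0.046) and 2.73-fold in SOX4-shRNA cells (1.37 ± 0.18, adjusted p = 0.0037). The rise in scrambled-shRNA cells lost its call without any 1 of the 4 scrambled-shRNA libraries (adjusted p 0.18 to 0.29), and with a pseudocount of 0.1 FPKM (0.054), no filter (0.11) or no intensity trend (0.051). With all transcripts kept by the filter in the limma fit, both TGF-β calls of COL1A1 were lost (adjusted p = 0.21 in scrambled-shRNA and 0.056 in SOX4-shRNA cells). The annotation has 1 gene without a symbol whose exons overlap those of COL1A1 on the other strand, and whether counting used strand is not given in the sources used here.

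COL1A2 (chromosome 7, 94024207 to 94060539, plus strand), the α2 chain, stood at 8.47 and 8.48 FPKM in untreated scrambled-shRNA cells, 13.3 and 13.6 with TGF-β, 2.24 and 1.95 in untreated SOX4-shRNA cells, and 3.79 and 4.20 with TGF-β. Its groups did not overlap either, and they lay in the same order as those of COL1A1. It was 4.04-fold lower with the shRNA in untreated cells (-1.62 ± 0.11, adjusted p = 0.0002) and 3.36-fold lower in treated cells (-1.53 ± 0.11, adjusted p = 0.00039). TGF-β raised it 1.58-fold in scrambled-shRNA cells (0.60 ± 0.11, adjusted p = 0.019) and 1.91-fold in SOX4-shRNA cells (0.69 ± 0.11, adjusted p = 0.0099). The call in scrambled-shRNA cells was lost without any 1 of their 4 libraries (adjusted p 0.11 to 0.17). In SOX4-shRNA cells it was lost without the second untreated (0.052) or the second treated library (0.054). With all transcripts kept by the filter in the limma fit, both TGF-β calls of COL1A2 were lost (adjusted p = 0.11 and 0.075). The call in SOX4-shRNA cells was also lost in a limma fit of the compared groups alone (0.085). The ratio of COL1A1 to COL1A2 FPKM was 7.92 to 8.70 in untreated scrambled-shRNA libraries and 4.82 to 5.71 in untreated SOX4-shRNA libraries, so the α1 transcript was the lower of the pair relative to its control level. With TGF-β the ratios were 8.31 to 9.38 and 6.82 to 8.28.

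COL3A1 (chromosome 2, 189839099 to 189877472, plus strand), the chain of type III collagen, stood at 4.11 and 3.70 FPKM in untreated scrambled-shRNA cells and 3.32 and 3.96 with TGF-β. In SOX4-shRNA cells it stood at 0.884 and 1.07 untreated and 1.76 and 1.97 with TGF-β. Scrambled-shRNA groups overlapped, and the SOX4-shRNA groups lay below them and apart from each other. The shRNA lowered it 3.99-fold in untreated cells (-1.31 ± 0.13, adjusted p = 0.0014) and 1.95-fold in treated cells (-0.69 ± 0.13, adjusted p = 0.027). TGF-β gave -0.08 ± 0.13 in scrambled-shRNA cells (adjusted p = 0.74) and 0.53 ± 0.13 in SOX4-shRNA cells (adjusted p = 0.045). The latter call was lost without any 1 of the 8 libraries (adjusted p 0.076 to 0.17). The call for the shRNA in treated cells was lost without either library of treated scrambled-shRNA cells (0.11 and 0.26), of treated SOX4-shRNA cells (0.12 and 0.08) or of untreated scrambled-shRNA cells (0.051 each). The ratio of COL3A1 to COL1A2 was 0.436 to 0.485 in untreated and 0.250 to 0.292 in treated scrambled-shRNA libraries, against 0.464 to 0.469 in treated SOX4-shRNA libraries.

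Type V collagen chains were of unequal level. COL5A2 (chromosome 2, 189896624 to 190090038, minus strand) lies 19151 bases from COL3A1. It stood at 9.16 and 10.1 FPKM in untreated scrambled-shRNA cells, 14 and 12.2 with TGF-β, 5.28 and 6.28 in untreated SOX4-shRNA cells, and 8.50 and 7.41 with TGF-β. Its groups did not overlap, but their distances were smaller than those of its neighbour COL3A1 under the shRNA in untreated cells. The shRNA lowered it 1.67-fold in untreated cells (-0.65 ± 0.13, adjusted p = 0.033) and 1.65-fold in treated cells (-0.66 ± 0.13, adjusted p = 0.034). Each of these calls was lost without any 1 of 6 of the 8 libraries, namely the scrambled-shRNA libraries and the SOX4-shRNA libraries compared, with adjusted p from 0.055 to 0.20 in untreated and from 0.067 to 0.29 in treated cells. TGF-β gave 0.41 ± 0.13 and 0.40 ± 0.13 in the 2 kinds of cell, each with an adjusted p of 0.11.

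COL5A1 (chromosome 9, 137533649 to 137736689, plus strand) rested on few reads and was not in the main fit. Summed over its 2 transcripts, it had 40 and 28 reads in untreated scrambled-shRNA cells, 77 and 91 with TGF-β, 5 and 9 in untreated SOX4-shRNA cells, and 32 and 38 with TGF-β. The levels were 0.289 and 0.269, 0.629 and 0.804, 0.0437 and 0.0704, and 0.278 and 0.304 FPKM. The 95% Poisson interval of each untreated SOX4-shRNA library (0.0142 to 0.102 and 0.0322 to 0.134 FPKM) lay under the intervals of all other libraries, of which the lowest bound was 0.179. These intervals cover counting error only. Without the filter neither transcript was called. The smallest adjusted p was 0.14 for NM_000093, with TGF-β in scrambled-shRNA cells, and 0.078 for NM_001278074, with the shRNA in treated cells. The 2 transcripts had the same values in every library but the second treated SOX4-shRNA one, with 0.304 FPKM for NM_000093 and 0.000111 for NM_001278074. The 0.078 rests on that split, and NM_000093 had 0.43 in the same comparison. The ratio of COL5A2 to COL5A1 was 31.7 to 37.6 in untreated scrambled-shRNA libraries, 15.2 to 22.2 with TGF-β, 89.2 to 121 in untreated SOX4-shRNA libraries and 24.4 to 30.6 with TGF-β. A gene without a symbol overlaps exons of COL5A1 on the other strand.

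Type VI collagen chains differed in their TGF-β values. COL6A1 (chromosome 21, 47401684 to 47424964, plus strand) stood at 16.6 and 14.1 FPKM in untreated scrambled-shRNA cells, 14 and 17.7 with TGF-β, 3.79 and 2.79 in untreated SOX4-shRNA cells, and 3.06 and 4.03 with TGF-β. It separated by shRNA and overlapped by TGF-β in both kinds of cell. The shRNA lowered it 4.66-fold in untreated cells (-1.93 ± 0.18, adjusted p = 0.00089) and 4.47-fold in treated cells (-1.89 ± 0.18, adjusted p = 0.0012). TGF-β gave 0.04 ± 0.18 (adjusted p = 0.92) and 0.09 ± 0.18 (adjusted p = 0.83).

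COL6A2 (chromosome 21, 47518026 to 47552762, plus strand) lies 93061 bases from COL6A1. Summed over 3 transcripts it stood at 15 and 12.1 FPKM in untreated scrambled-shRNA cells, 13.3 and 16.1 with TGF-β, 2.12 and 1.67 in untreated SOX4-shRNA cells, and 2.34 and 3.97 with TGF-β. The transcript NM_001849 carried 72.6 to 90.6% of this sum. In that row the shRNA gave -2.37 ± 0.20 in untreated cells (adjusted p = 0.0005) and -1.90 ± 0.20 in treated cells (adjusted p = 0.0017), and TGF-β gave 0.08 ± 0.20 (adjusted p = 0.85) and 0.55 ± 0.20 (adjusted p = 0.14). The last was called without the first treated SOX4-shRNA library (0.87, adjusted p = 0.024) and was 0.23 without the second (adjusted p = 0.47). Its summed mean was 7.16-fold lower with the shRNA in untreated cells, the largest factor for a chain of this type. NM_058174 stood at 0.245 to 3.09 FPKM and passed no test, with an adjusted p of 0.072 for the shRNA in treated cells (-1.08 ± 0.27), which was called without the first treated scrambled-shRNA library (-1.51, adjusted p = 0.036) and was -0.65 without the second (0.40). NM_058175 was listed at 0.870 and 0.590 FPKM in the 2 untreated scrambled-shRNA libraries and at 0 in the other 6. The decimal marks of these 2 values were intact. The length taken for NM_058175 was 1 of 4 that fit, and it bears on the readings of NM_001849 and NM_058174 in those 2 libraries. Why NM_058175 was listed at 0 was not tested. It was under the filter, and without the filter it was called lower with TGF-β in scrambled-shRNA cells (adjusted p = 0.0098) and with the shRNA in untreated cells (adjusted p = 0.011). The ratio of COL6A1 to COL6A2 was 1.10 to 1.16 and 1.05 to 1.10 in scrambled-shRNA cells without and with TGF-β, and 1.66 to 1.79 and 1.02 to 1.31 in SOX4-shRNA cells.

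COL6A3 (chromosome 2, 238232646 to 238322971, minus strand), the chain with the longest amino-terminal part of the 3, stood at 1.80 and 2.05 FPKM in untreated scrambled-shRNA cells, 3.23 and 3.58 with TGF-β, 0.589 and 0.497 in untreated SOX4-shRNA cells, and 1.62 and 1.93 with TGF-β. Unlike those of COL6A1, its treated and untreated libraries did not overlap in either kind of cell. Its transcripts NM_057166 and NM_057167 share the reads, and the others were at or near 0 apart from NM_004369 at 0.194 in the first treated scrambled-shRNA library. By transcript, NM_057167 was called for the shRNA in untreated cells (-0.75 ± 0.15, adjusted p = 0.033) and for TGF-β in SOX4-shRNA cells (0.72 ± 0.15, adjusted p = 0.028), while NM_057166 was not called in any comparison. NM_057167 was listed at 0 in the first untreated SOX4-shRNA library and at 0.214 FPKM in the second, and the sizes depend on the scale: -2.42 and 2.35 with a pseudocount of 0.1 FPKM, and -4.82 and 4.73 by limma-voom on whole reads. The first call was lost without any 1 of the 4 scrambled-shRNA or the 2 untreated SOX4-shRNA libraries (adjusted p 0.05 to 0.16). The second was lost without the first untreated scrambled-shRNA library, either treated scrambled-shRNA library, the first untreated or the second treated SOX4-shRNA library (0.05 to 0.15). With its transcripts summed, an alternative chosen after seeing the data, COL6A3 was called in all 4 comparisons. TGF-β gave 0.59 ± 0.13 (adjusted p = 0.031) in scrambled-shRNA and 0.84 ± 0.13 (adjusted p = 0.0068) in SOX4-shRNA cells, and the shRNA gave -0.92 ± 0.13 (adjusted p = 0.007) in untreated and -0.67 ± 0.13 (adjusted p = 0.028) in treated cells. The ratio of COL6A1 to COL6A3 was 6.86 to 9.19 in untreated scrambled-shRNA libraries, 4.34 to 4.93 with TGF-β, 5.61 to 6.44 in untreated SOX4-shRNA libraries and 1.89 to 2.09 with TGF-β.

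**Figure D3:**
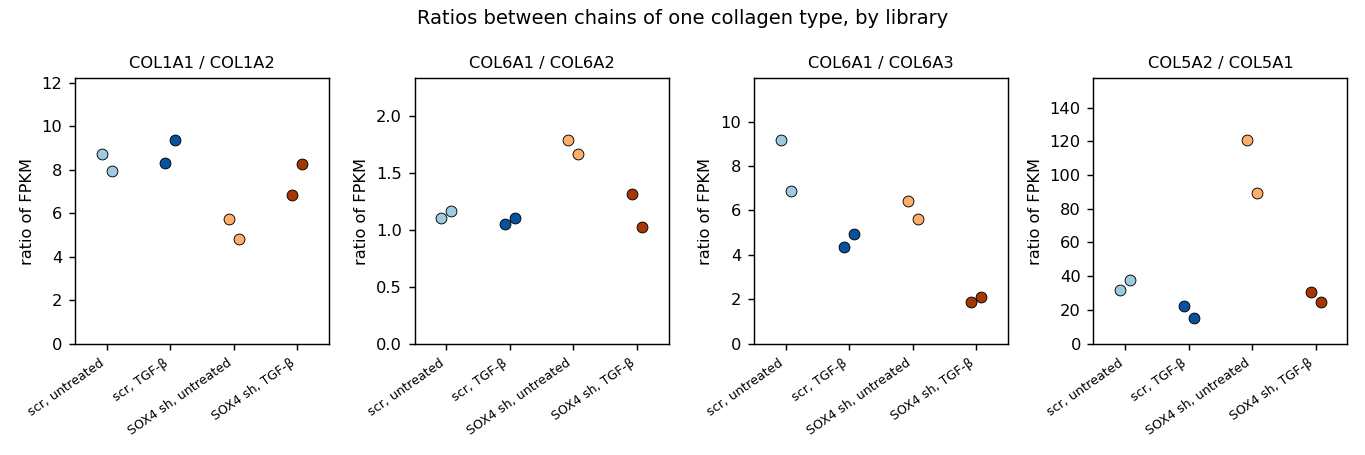
Ratio of FPKM between 2 chains of one collagen type in each of the 8 libraries, on linear axes from 0; "scr" is scrambled shRNA and "SOX4 sh" is SOX4 shRNA. COL5A2 over COL5A1 is highest in untreated SOX4-shRNA libraries (89.2 to 121), and COL6A1 over COL6A3 is lowest in treated SOX4-shRNA libraries (1.89 to 2.09).

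COL12A1 (chromosome 6, 75794042 to 75915983, minus strand) was the member least moved by the shRNA. Summed, it stood at 25 and 30.4 FPKM in untreated scrambled-shRNA cells, 38.2 and 36.5 with TGF-β, 24.6 and 26.9 in untreated SOX4-shRNA cells, and 30.7 and 30.5 with TGF-β. With transcripts summed, the shRNA gave -0.10 ± 0.12 (adjusted p = 0.73) and -0.28 ± 0.12 (adjusted p = 0.30), and TGF-β 0.42 ± 0.12 (adjusted p = 0.073) and 0.24 ± 0.12 (adjusted p = 0.28). The forms printed above took different courses. The long form stood at 14.8 and 17.0 FPKM in untreated scrambled-shRNA cells, 22.5 and 22.6 with TGF-β, 17.2 and 23.1 in untreated SOX4-shRNA cells, and 21.1 and 19.6 with TGF-β. The short form stood at 10.2 and 13.3, 15.7 and 14, 7.37 and 3.86, and 9.66 and 10.8 FPKM in the same order. In untreated cells the long form was higher with the shRNA and the short form lower, without overlap in either. Neither passed the test, with 0.31 ± 0.15 (adjusted p = 0.30) for the long and -0.99 ± 0.24 (adjusted p = 0.060) for the short form. The short form was at -1.39 without the first untreated SOX4-shRNA library, which was called (adjusted p = 0.0074), and at -0.60 without the second (0.17). It was called by limma-voom on whole reads (0.041). TGF-β gave 0.48 ± 0.15 (adjusted p = 0.090) for the long form in scrambled-shRNA cells, called without either untreated SOX4-shRNA library (0.044) and at 0.18 to 0.40 without any 1 of the 4 scrambled-shRNA libraries. In SOX4-shRNA cells it gave 0.82 ± 0.24 (adjusted p = 0.078) for the short form, which was 1.21 without the first untreated SOX4-shRNA library, a call (0.0088), and 0.42 without the second (0.24). The short form made up 40.9 to 43.9% of COL12A1 FPKM in untreated scrambled-shRNA libraries, 38.2 to 41.1% with TGF-β, 14.3 and 29.9% in untreated SOX4-shRNA libraries, and 31.4 to 35.5% with TGF-β. The 2 untreated SOX4-shRNA libraries lay further apart than those of any other group, and the shares are estimates from reads in the block and at its junctions.

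**Figure D4:**
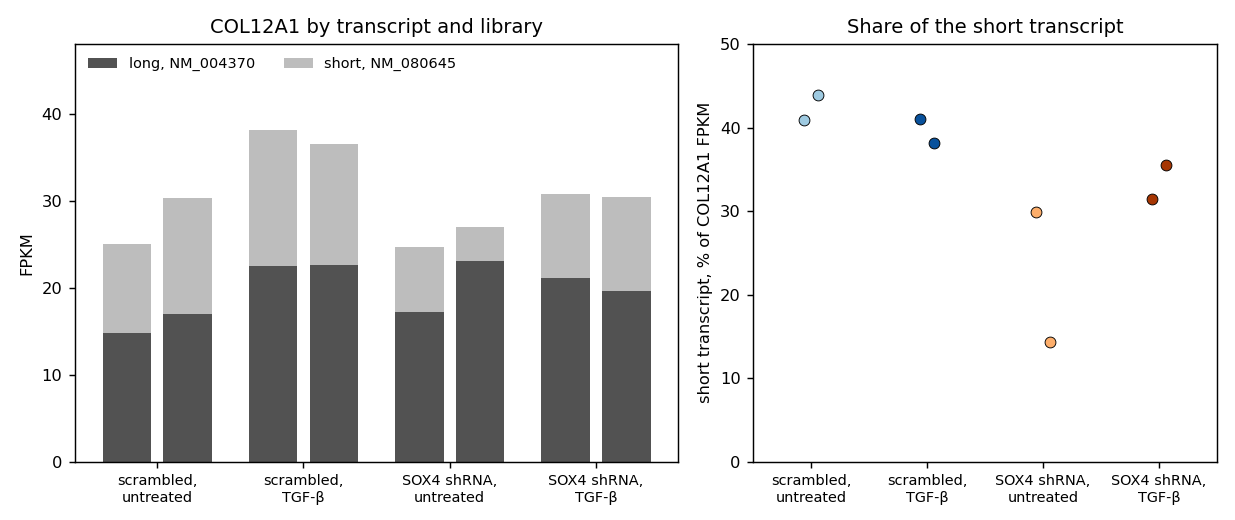
Left, FPKM of the long and the short COL12A1 transcript stacked for each of the 8 libraries. Right, the short transcript as a percentage of their sum, with 1 point a library. The share is 38.2 to 43.9% in the 4 scrambled-shRNA libraries and 14.3 to 35.5% in the 4 SOX4-shRNA libraries.

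COL22A1 (chromosome 8, 139600478 to 139926284, minus strand) had the largest TGF-β ratios. It stood at 0.446 and 0.644 FPKM in untreated scrambled-shRNA cells, 4.51 and 4.30 with TGF-β, 0.105 and 0.0315 in untreated SOX4-shRNA cells, and 1.04 and 0.923 with TGF-β. The reads behind these were 46 and 50, 412 and 363, 9 and 3, and 89 and 86. No groups overlapped, and the treated SOX4-shRNA libraries lay above both untreated groups. TGF-β raised the mean 8.08-fold in scrambled-shRNA cells (log2 difference 1.81 ± 0.13, adjusted p = 0.00042), the 8th highest log2 difference of all rows. In SOX4-shRNA cells the ratio of means was 14.3 (0.89 ± 0.13, adjusted p = 0.0057), but it rests on the 9 and 3 reads of the untreated libraries, whose 95% Poisson intervals were 0.0482 to 0.2 and 0.00649 to 0.0920 FPKM. The log2(FPKM + 1) scale understates changes at these levels. The shRNA lowered it 4.50-fold in treated cells (-1.45 ± 0.13, adjusted p = 0.0010). In untreated cells the shRNA difference was -0.53 ± 0.13 (adjusted p = 0.063), which limma-voom on whole reads called (adjusted p = 0.0093), as did the fit with a pseudocount of 0.1 FPKM (0.014).

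The 5 genes whose log2 levels were most like the mean profile of the fitted members over the 8 libraries, among 245 other rows with an SD of at least 0.5, were GFPT2 (Pearson r = 0.992), CDH11 (0.990), CYP27C1 (0.990), CCDC69 (0.987) and HHIP (0.983). The libraries share the same 4 groups, so these are descriptions of likeness. CDH11, a mesenchymal cadherin, stood at 15.4 and 17.2 FPKM in untreated scrambled-shRNA cells, 34.2 and 33.6 with TGF-β, 1.98 and 2.09 in untreated SOX4-shRNA cells, and 6.31 and 6.12 with TGF-β. The members themselves had r from 0.85 to 0.99 with that profile, of which they are part, except the long form of COL12A1 with 0.13.

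Genes that fold, export, process and bind collagen were followed through lists of known function, of which only genes with settled decimal marks could be tested. Of 19 enzymes, chaperones and regulators of chain modification and folding, 9 were tested. CREB3L1, a membrane-bound transcription factor that acts on collagen and secretory genes, rose with TGF-β in scrambled-shRNA cells (mean 2.16 to 5.06 FPKM, log2 difference 0.96, adjusted p = 0.022) and in SOX4-shRNA cells (0.455 to 1.65 FPKM, 0.87, adjusted p = 0.028). It fell with the shRNA in untreated (-1.10, adjusted p = 0.016) and treated cells (-1.19, adjusted p = 0.012). It was the only 1 of the 9 tested that fell. PLOD1, a lysyl hydroxylase, rose with TGF-β in SOX4-shRNA cells (0.57, adjusted p = 0.049), and the other 7 passed no test. The list medians with the shRNA were -0.32 in untreated and -0.10 in treated cells.

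Of 9 procollagen export genes 3 were tested, and SEC24D, a COPII coat subunit, rose with TGF-β from 18.8 to 42.0 FPKM in scrambled-shRNA cells (1.11, adjusted p = 0.0013) and from 16.3 to 29.4 in SOX4-shRNA cells (0.81, adjusted p = 0.0033). It fell with the shRNA in treated cells (-0.50, adjusted p = 0.037). Of 10 genes of propeptide removal 2 were tested. PCOLCE, which enhances removal of the carboxy-terminal propeptide, fell with the shRNA in untreated cells (2.50 to 0.750 FPKM, -0.99, adjusted p = 0.014) and in treated cells (-0.80, adjusted p = 0.034), while PCOLCE2 passed no test. Of 19 genes of cross-linking and fibril assembly 4 were tested. BGN, the proteoglycan biglycan, fell with the shRNA from 10.2 to 3.22 FPKM in untreated cells (-1.42, adjusted p = 0.0035) and from 12.2 to 4.69 in treated cells (-1.22, adjusted p = 0.0066). SPARC, a collagen-binding matricellular protein, rose with TGF-β in scrambled-shRNA (0.61, adjusted p = 0.011) and SOX4-shRNA cells (0.47, adjusted p = 0.022), and LOXL2, a lysyl oxidase-like enzyme, in SOX4-shRNA cells (0.70, adjusted p = 0.033).

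Of 12 collagen receptors 3 were tested. ITGA10, a collagen-binding integrin chain, fell with the shRNA in untreated cells (2.06 to 0.729 FPKM, -0.82, adjusted p = 0.011). CSPG4, a proteoglycan that binds type VI collagen, rose with TGF-β in scrambled-shRNA (0.93, adjusted p = 0.019) and SOX4-shRNA cells (1.66, adjusted p = 0.0012), and MRC2, a receptor for collagen uptake, in SOX4-shRNA cells (0.77, adjusted p = 0.037). Of 8 collagen-cleaving proteases 2 were tested, and MMP9, a gelatinase, rose with TGF-β from 4.33 to 21.2 FPKM in scrambled-shRNA cells (2.06, adjusted p = 0.0029) and from 2.83 to 32.4 in SOX4-shRNA cells (3.13, adjusted p = 0.00027). Of 26 other collagen genes 3 were tested. COL5A3, a further type V chain, fell with the shRNA in untreated (3.25 to 1.07 FPKM, -1.04, adjusted p = 0.0045) and treated cells (-0.82, adjusted p = 0.013), and COL27A1, a fibrillar collagen, rose with TGF-β in SOX4-shRNA cells (6.43 to 13.1 FPKM, 0.92, adjusted p = 0.010). Of the 7 control genes for TGF-β signalling, INHBA and LTBP2 were tested and rose in both kinds of cell. INHBA rose from 27.6 to 64.7 FPKM in scrambled-shRNA cells (1.20, adjusted p = 0.00074) and from 20.7 to 53.9 in SOX4-shRNA cells (1.34, adjusted p = 0.00039). LTBP2 rose from 7.10 to 13.9 FPKM (0.88, adjusted p = 0.0058) and from 6.29 to 23.1 (1.73, adjusted p = 0.00025), and it was higher with the shRNA in treated cells (0.69, adjusted p = 0.018), the only gene of these lists called higher with the shRNA.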

How the data were processed

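Members and lists were chosen with earlier results of these data known. The submitters' processing notes list the build hg19 with Cuffdiff, Cufflinks 2.2.1 and TopHat2 2.0.9. The labels name both polyA RNA and a ribosomal-depletion kit, and the strand setting is not given in the sources used here. The deposited table by the authors holds other values than plain numbers: they are FPKM by the tools named, in which 34.1% of cells had lost the decimal mark and 13.9% had damaged exponents, set to 0 as below 1e-04. Marks were restored by requiring FPKM to be a whole number of reads times a library and length factor (tolerance 0.003 reads plus rounding). Of 5543 genes with 1 transcript, 5102 gave whole reads, and 5053 had a posterior of at least 0.95. The posterior favoured small differences between the libraries of a group and moderate effects. Genes with restored libraries of a group more than 4-fold apart were left out. Large spreads between libraries were thus partly removed before the fit. Large changes in 1 group alone were often left out too in a check with known changes, given with the interaction above. Member genes with several transcripts were restored from the whole-read sum, and COL12A1 had 2 fits, of which the 1 with the annotated coding difference was used. The third COL6A2 transcript had 4 length fits, of which the 1 with the closest untreated scrambled-shRNA replicates was used.

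Symbols were matched for 47097 of 48175 transcripts (97.76%). Of 19396 rows kept by the filter of 1 FPKM in 2 libraries, 5059 entered limma 3.58.1 (R 4.3.3) on the log2(FPKM + 1) scale (intensity trend, 1 fit of 4 groups, Benjamini-Hochberg over 5059 rows, called under an adjusted p of 0.05). Shares, medians and ranks over all rows refer to these 5059. Other genes with several transcripts were not in the fit. Rows of COL6A2, COL6A3 and COL12A1 were, without the posterior and 4-fold limits set for genes with 1 transcript. The restriction to restored rows was not in the design and was needed because of the lost marks. Gene positions are from GENCODE on GRCh37. On simulated data the fit called 83 of 100 changes of 1 log2 unit and 99 of 100 of 2 units, among 5059 genes, for the shRNA in untreated cells. It also called 13 unchanged genes, and the other comparisons were not simulated. The simulation gave a gene the same spread in every group, whereas replicates of the SOX4-shRNA groups differed more in the data. The genes named from a list are up to 4 called ones per comparison by p. Alternatives were a pseudocount of 0.1, 2 filters, median ratio scaling, the compared groups alone, a replicate block, no trend, all kept transcripts, voom on whole reads and leaving out each library; summed transcripts and a crossed block were added after seeing the data.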

Additional observations from a re-analysis of the deposited data

Results flagged for a closer look

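The long COL12A1 transcript (NM_004370) moved in opposite directions with the shRNA. In untreated cells both SOX4-shRNA libraries (17.2 and 23.1 FPKM) lay above both scrambled-shRNA libraries (14.8 and 17.0), and in TGF-β-treated cells both (21.1 and 19.6) lay below (22.5 and 22.6). The difference between these effects was -0.45 ± 0.21 SE on the log2 scale and was not called (limma, adjusted p = 0.99). Neither shRNA effect was called on its own.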

How the results depend on the processing

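Of the 22 calls of member rows, 9 held under every alternative run for them, other than the 2 chosen after seeing the data, which were not counted here: COL22A1 for TGF-β in scrambled-shRNA cells, COL1A1, COL1A2, COL3A1, COL6A1 and COL6A2 for the shRNA in untreated cells, and COL1A1, COL1A2 and COL6A1 for the shRNA in treated cells. COL22A1 and COL3A1 were under the filter of 5 FPKM in 2 libraries and were not tested with it. No called value reversed. Where a count or a call changed, the cause was not tested unless named.

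For TGF-β in scrambled-shRNA cells (3 rows called), the compared groups alone gave 6, the replicate block 1, and all kept transcripts by their best reading 1 (more rows tested). For TGF-β in SOX4-shRNA cells (5 called), these gave 2 with the compared groups alone, 0 with all kept transcripts, and 2 with at least 5 FPKM in 2 libraries, which leaves fewer rows. For the shRNA in treated cells (7 called), all kept transcripts gave 3. Leaving out 1 library gave 1 to 4, 2 to 5, 5 to 7 and 5 to 7 calls in the 4 comparisons and 0 for the interaction, with the lone library of a group assumed to vary like the others. The replicate numbers pair nothing in the labels: deviations of same-numbered libraries correlated by 0.57 and 0.387 between the kinds of cell and by -0.262 and -0.682 between treated and untreated libraries, so the replicate block is given here only. Swapping the numbers of treated libraries, chosen after seeing the data, gave 7 and 8 calls for TGF-β and 0 for the interaction.

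Reversed values were those of uncalled rows. With TGF-β in scrambled-shRNA cells, leaving out 1 library gave -0.18 to 0.02 for COL3A1, -0.12 to 0.20 for COL6A1 and -0.04 to 0.20 for COL6A2 NM_001849. In SOX4-shRNA cells it gave -0.08 to 0.25 for COL6A1, -0.17 to 0.23 for COL12A1 NM_004370 and -0.14 to 0.21 for COL6A2 NM_058174. For the interaction it gave -0.11 to 0.10 for COL5A2, -0.12 to 0.22 for COL6A1 and -0.08 to 0.28 for COL6A3 NM_057166. The COL5A2 interaction was 0.02 with a pseudocount of 0.1 and 0.03 with voom, and that of COL22A1 0.93 with voom. The lower whole readings would put the group mean at 18.7 FPKM for COL1A1 in treated SOX4-shRNA cells, 5.09 for COL5A2 in untreated and 20.9 for COL12A1 in treated scrambled-shRNA cells.

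Depth limits COL5A1 and COL22A1 in untreated SOX4-shRNA cells, with 3 to 9 reads a library. Replicates differed beyond counting noise, with a chi-square per gene of 3 to 8.01 in scrambled-shRNA and 17.4 to 18.4 in SOX4-shRNA groups, and the fit used 1 spread for all.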
